A study of Mus musculus with 15 samples.

Results

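The Obox genes are a family of oocyte-specific homeobox genes that lie in a cluster on mouse chromosome 7 and encode transcription factors with a paired-like homeodomain. Some copies, Obox1, Obox2, Obox5 and Obox7 among them, are stored as maternal mRNA in the oocyte, while others, such as Obox3, are known mainly as embryonic copies, and the family acts redundantly in switching on the embryonic genome after fertilisation in the mouse. The family described here has 5 members, Obox1, Obox2, Obox3, Obox5 and Obox6, taken by symbol from the 28785 gene IDs with counts in the 15 oocytes. Obox7 and 48 genes with Obox pseudogene symbols are used beside them, since near-identical copies may share reads.

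Single mouse oocytes were profiled with MATQ-seq, which makes and amplifies cDNA from the total RNA of 1 cell, at 2 stages of meiotic maturation. The 6 MII oocytes, mature eggs held at the second meiotic metaphase, came from the oviducts of females given 7 IU of pregnant mare serum gonadotropin, then 7 IU of human chorionic gonadotropin after about 48 h, and collected 20 h later. Their cumulus cells were removed with 300 IU/mL hyaluronidase. The 9 GV oocytes, fully grown and still arrested in meiotic prophase with an intact germinal vesicle, came from females of about 6 to 8 weeks given 7 IU of pregnant mare serum gonadotropin and collected 44 h later. Both stages were thus taken from hormone-primed females, and neither the strain nor the animal behind an oocyte is named in the labels. Each stage therefore counted as 1 sample, no test was made, and differences are given by size beside the spread between oocytes.

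MII oocytes held 808641 to 2348281 counts and 9617 to 13873 detected genes, and GV oocytes held 3687610 to 7103063 counts and 15062 to 18853 detected genes, with 3687610 to 4242145 counts in GV7 to GV9 and 4264183 to 7103063 in GV1 to GV6. The GV libraries fall into sets by their file headers, GV7 to GV9 with headers that begin with E and GV1 to GV6 with headers that begin with Y, and the MII files carry another header, so the stage cannot be told apart from the file set. An unnamed feature, ENSMUSG00000119584, took 15.7% to 61.2% of the counts in MII oocytes, 3.43% to 11.2% in GV7 to GV9 and 0% in GV1 to GV6. All 12 oocyte markers examined, such as Zp3, Gdf9 and Ddx4, were detected at both stages, at 5254 to 7410 CPM summed per oocyte in MII and 6986 to 28230 CPM in GV. The 6 oviduct markers summed to 292 to 1257 CPM per oocyte in MII and 541 to 1325 CPM in GV, the highest sums of the lists for other cell types. Nearly all of this was Cdh1, which encodes E-cadherin, a protein that mouse oocytes are also known to make, with 6779 counts in MII and 40493 in GV. Epcam had 1 count in MII and 3 in GV, and Ovgp1, Foxj1, Pax8 and Krt18 were at 0 in MII. Theca and stroma markers summed to at most 27.9 CPM per oocyte in MII and 17.6 CPM in GV, and blood and immune markers to at most 11.5 CPM in MII and 7.18 CPM in GV. Of 12 cumulus and granulosa cell markers, 6 were detected in MII (3.71 to 24.3 CPM summed per oocyte, with Amh, Inha, Inhba, Foxl2, Ptx3 and Lhcgr at 0), 8 in GV7 to GV9 (12.2 to 40.9 CPM) and 11 in GV1 to GV6 (53.0 to 221 CPM). CPM is the count of a gene scaled to a common total per library.

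Obox1 and Obox2 are almost the same in sequence, which bears on every separate value given for them. In the GENCODE M21 annotation of GRCm38 the gene models of the members all lie on chromosome 7. Obox1 spans chr7:15388948-15556866 and Obox2 chr7:15388721-15398545, both on the plus strand, and their exons overlap by 59 bases, which is 3.11% of the exon length of Obox1 and 3.58% of that of Obox2. Obox3 spans chr7:15479825-15639902 on the minus strand, Obox5 chr7:15750131-15759800 on the plus strand and Obox6 chr7:15833241-15839678 on the minus strand. Obox7 lies apart from them at chr7:14659496-14665996 on the plus strand. The longest transcripts of Obox1 and Obox2 were 99.2% identical over 1459 aligned bases, with 12 mismatches and a longest shared run of 427 bases. Every other pair among these 6 genes was 76.0% to 94.1% identical. The coding sequences of Obox1 (615 bases) and Obox2 (456 bases) differed at 7 of 456 aligned bases. A stretch of 90 coding bases of each is shown because it carries 3 of those 7 differences and so shows how little separates a read of one from a read of the other. It covers bases 170 to 259 of the coding sequence, 5′ to 3′, and capitals mark the differing bases.
Obox1: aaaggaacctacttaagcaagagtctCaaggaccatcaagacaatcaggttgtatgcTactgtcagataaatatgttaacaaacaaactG
Obox2: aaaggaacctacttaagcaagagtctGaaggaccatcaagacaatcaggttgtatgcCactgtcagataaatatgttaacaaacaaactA

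How far a short read could be placed was described by cutting the longest transcript of each gene into windows and looking for each window in the annotated transcripts of other genes. With windows of 50 bases, 59.3% of the windows of Obox1 and 63.0% of those of Obox2 also occurred in another gene, against 32.7% for Obox3, 20.2% for Obox7, 13.0% for Obox5 and 5.02% for Obox6. With windows of 150 bases these shares were 31.4% for Obox1, 32.7% for Obox2, 8.47% for Obox3 and 0% for Obox5, Obox6 and Obox7. Nearly all of the sharing of Obox1 and Obox2 was with each other, while Obox5 and Obox6 were the members whose windows were least shared. The sources used here do not state the read length or what was done with reads that match several genes.

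**Figure D1:**
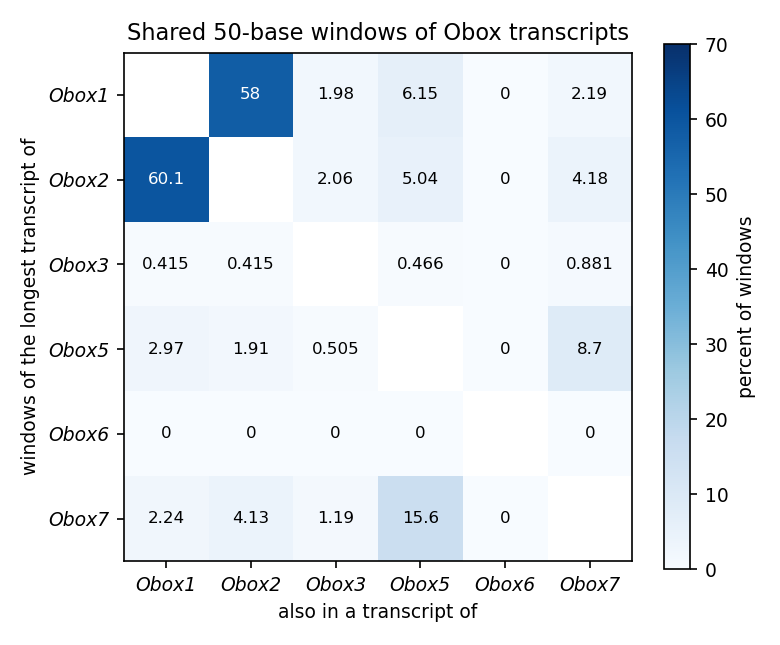
Share of the 50-base windows in the longest transcript of each gene (rows) that also occur in a transcript of another Obox gene (columns), in percent, from GENCODE M21. Obox1 and Obox2 shared 58.0% and 60.1% of their windows with each other, and no other pair went above 15.6%.

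The stretches around the RefSeq starts of the genes were also alike. RefSeq promoter windows of 300 bases (GRCm38.p6), from 250 bases before to 50 after the start, were matched by symbol for Obox1, Obox2, Obox3, Obox5 and Obox7. The Obox1 window lies inside the GENCODE span of Obox1, chr7:15388948-15556866, far from the start of that span. RefSeq and GENCODE thus place the start of Obox1 differently. The windows of Obox1 and Obox2 were identical over all 203 bases that align. A run of 25 bases occurred in all 5 windows and in 5 of 32851 promoters of the table, a share of 0.0152%. A second run of 42 bases occurred in the windows of Obox1, Obox3, Obox5 and Obox7 and in no other promoter of the table. The 25-base run starts at base 153 of the Obox1 window and at base 250 of the Obox2 window. The Obox2 window thus ends before the place where the second run would lie, so it does not show whether Obox2 has it. The windows of Obox1, Obox2 and Obox3 are shown because they set the 2 copies with near-identical transcripts beside a copy that was almost without counts. They lie at chr7:15547007-15547306 on the plus strand, chr7:15388601-15388900 on the plus strand and chr7:15639728-15640027 on the minus strand, each is written 5′ to 3′ on its own strand, and capitals mark the shared runs.
Obox1: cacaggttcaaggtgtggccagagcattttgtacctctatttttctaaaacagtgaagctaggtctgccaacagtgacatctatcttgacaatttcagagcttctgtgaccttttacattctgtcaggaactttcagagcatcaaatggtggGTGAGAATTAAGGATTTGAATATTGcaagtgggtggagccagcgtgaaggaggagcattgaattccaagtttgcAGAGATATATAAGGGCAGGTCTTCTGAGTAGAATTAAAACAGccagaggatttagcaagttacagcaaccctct
Obox2: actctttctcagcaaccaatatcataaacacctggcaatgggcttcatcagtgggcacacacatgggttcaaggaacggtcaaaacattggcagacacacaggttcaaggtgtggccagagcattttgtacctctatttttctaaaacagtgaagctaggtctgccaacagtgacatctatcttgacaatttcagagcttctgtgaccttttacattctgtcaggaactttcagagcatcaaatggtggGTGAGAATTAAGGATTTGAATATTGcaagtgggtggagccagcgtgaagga
Obox3: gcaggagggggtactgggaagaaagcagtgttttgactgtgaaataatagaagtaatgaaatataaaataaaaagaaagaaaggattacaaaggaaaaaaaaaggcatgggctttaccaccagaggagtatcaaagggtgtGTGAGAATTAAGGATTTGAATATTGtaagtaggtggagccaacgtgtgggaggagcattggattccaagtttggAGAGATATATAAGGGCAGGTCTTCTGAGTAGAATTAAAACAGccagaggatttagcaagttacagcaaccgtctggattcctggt

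Short motifs were searched on both strands of the same windows. The E-box CANNTG occurred 2 times in the window of Obox1, 4 times in that of Obox2, 2 times each in those of Obox5 and Obox7 and not in that of Obox3, and 72.3% of all promoters of the table held it. Relative to the shared 25-base run the Obox2 window reaches further upstream, so its E-box count covers a different stretch from that of Obox1. CACGTG, which is 1 form of CANNTG, was in none of the 5 windows and in 7.15% of all promoters. The homeobox-type motifs TAATTA and TAATTG were in none of the 5 windows and in 5.29% and 8.00% of all promoters. TATAAA (13.6% of all promoters) and TAATCC (7.06%) were each found 1 time, both in the window of Obox3. These matches describe the letters of the windows only.

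Obox transcripts were abundant in the oocytes of both stages and took a smaller part of the counts in MII. The 5 members together had 6044 counts in MII, or 628 CPM (exact Poisson 95% interval 612 to 644), and 88564 counts in GV, or 2017 CPM (2004 to 2031). The summed level ran from 536 to 743 CPM over the MII oocytes (median 652). It was 568, 1214 and 935 CPM in GV7, GV8 and GV9, and 1656 to 4358 CPM in GV1 to GV6 (median 2230). MII oocytes thus lay below every oocyte of GV1 to GV6, as was so in CPM for 7.64% of measured genes, and overlapped with GV7 to GV9. The median measured gene, taken over genes that reached 5 CPM in the higher stage, had a log2 ratio MII/GV of −0.98 on total counts, so ratios are given relative to that gene. On this scale the summed family had a log2 ratio of −0.70 ± 0.83, where ± gives the spread between oocytes, as the root of the summed squares of the SDs over 6 MII and 9 GV oocytes. The ratio was smaller than that spread.

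Obox1, a maternal copy, was the member whose MII oocytes all lay below all GV oocytes in level relative to the median gene. Its CPM ran from 59.5 to 123 over the MII oocytes (median 99.6). It was 240, 634 and 469 CPM in GV7, GV8 and GV9, and 226 to 652 CPM in GV1 to GV6 (median 342). Even the highest MII oocyte was below the lowest GV oocyte, as was so for 4.65% of measured genes in CPM, and the GV sets overlapped with each other. The summed counts were 909 in MII, or 94.4 CPM (88.3 to 101), and 16562 in GV, or 377 CPM (372 to 383). The log2 ratio relative to the median gene was −1.02 ± 0.56, larger than the spread. The relative log2 level, log2(CPM + 1) with the median measured gene of the same oocyte subtracted, ran from 2.18 to 3.05 in MII and from 3.10 to 4.39 in GV. The highest MII oocyte and the lowest GV oocyte were thus close to each other on this scale.

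Of the 3 members that were measured, Obox1, Obox2 and Obox5, only Obox1 was at least 2-fold lower in MII, 1 of 3, beside 15.5% of 10089 measured genes. It was also the only member whose relative levels were lower in MII with no overlap between the stages, beside 0.684% of measured genes. With Obox1 and Obox2 summed the stages did overlap, at 4.53 to 5.28 in MII and 4.01 to 6.73 in GV. The separation of Obox1 alone may therefore depend on how reads of the pair were divided. The ratio of Obox1 sits at the 2-fold line. It was −0.94 without MII2, −0.89 without MII3, −0.89 without GV4, −0.93 without GV8 and −0.98 without GV9, and it was −0.92 against GV1 to GV6 alone and −0.89 with a minimum of 1 CPM. Against GV7 to GV9 alone it was −1.36 ± 0.59.

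Obox2, the near twin of Obox1, was the most abundant member per length in MII and in GV1 to GV6, and its level divided the GV oocytes. Its CPM ran from 262 to 390 over the MII oocytes (median 339). It was 119, 221 and 204 CPM in GV7, GV8 and GV9, and 1035 to 2827 CPM in GV1 to GV6 (median 1332). The MII oocytes therefore lay between the GV sets, above each oocyte of GV7 to GV9 and below each of GV1 to GV6. In CPM the highest MII oocyte was 1.49-fold above the lowest, against 1.86-fold in GV7 to GV9 and 2.73-fold in GV1 to GV6. Relative levels ran from 4.19 to 5.04 in MII, 2.42 to 2.91 in GV7 to GV9 and 5.25 to 6.43 in GV1 to GV6. On that scale GV7 to GV9, with only 3 oocytes, had the narrowest range. Summed over the stage, Obox2 had 3197 counts in MII, or 332 CPM (321 to 344), and 50416 in GV, or 1148 CPM (1138 to 1158). Its log2 ratio relative to the median gene was −0.81 ± 1.54 against all GV oocytes, well inside the spread. Against GV7 to GV9 alone the ratio was 1.75 ± 0.43, and against GV1 to GV6 alone it was −1.19 ± 0.55. The direction for Obox2 thus depended on the set of GV oocytes, and both of these values exceeded their spread with no overlap between the oocytes compared. With GV7 to GV9 as the other side, 9.15% of measured genes were higher in MII with no overlap in relative level and 3.02% in CPM. With GV1 to GV6, 1.19% were lower with no overlap in relative level and 7.64% in CPM.

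Obox5, a maternal copy whose transcript shares little exact sequence with Obox1 and Obox2, stood nearer to the median gene. Its CPM ran from 152 to 289 over the MII oocytes (median 187). It was 210, 359 and 260 CPM in GV7, GV8 and GV9, and 334 to 878 CPM in GV1 to GV6 (median 572). The MII oocytes overlapped with GV7 to GV9 and lay below all of GV1 to GV6 in CPM, as 7.64% of measured genes did, though not in relative level, where MII ran from 3.04 to 4.23 and GV1 to GV6 from 3.68 to 5.00. The summed counts were 1930 in MII, or 200.4 CPM (192 to 210), and 21477 in GV, or 489 CPM (483 to 496). The log2 ratio relative to the median gene was −0.30 ± 0.80. Against GV7 to GV9 it was 0.41 ± 0.54, a direction that held only relative to the median gene, since on total counts that ratio was −0.45. With GV1 to GV6 as the other side it was −0.51 ± 0.72. None of these ratios of Obox5 exceeded its spread.

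**Figure D2:**
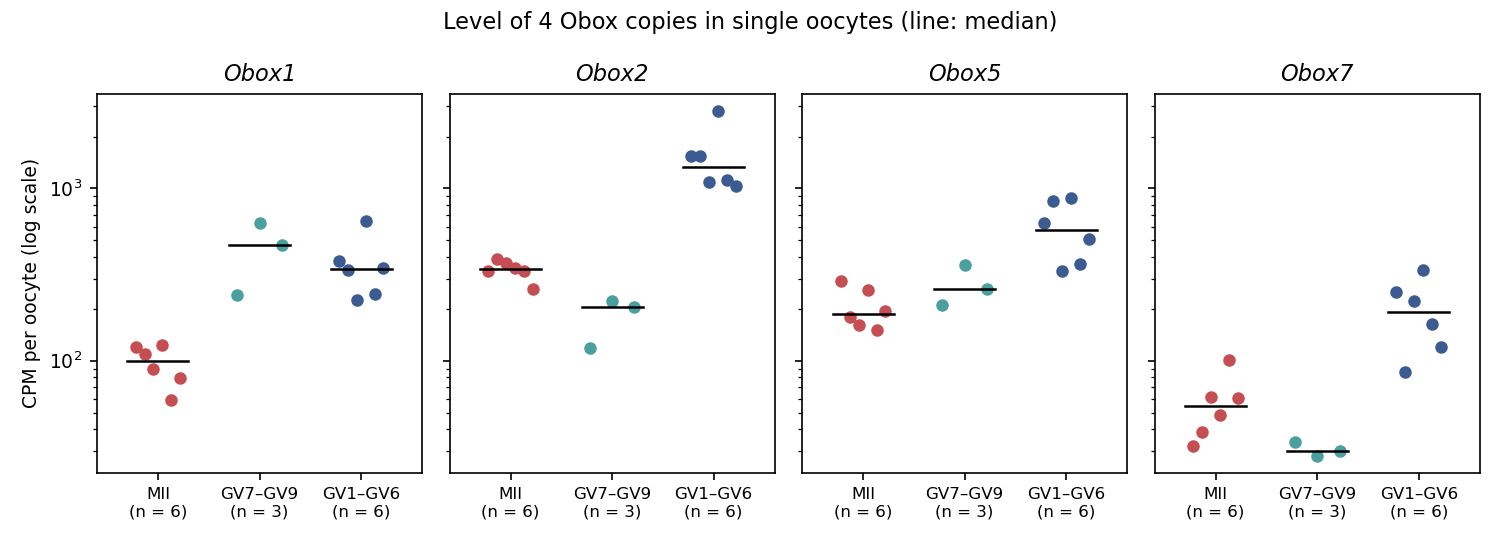
Level of Obox1, Obox2, Obox5 and Obox7 in each oocyte in CPM on a log axis, with MII, GV7 to GV9 and GV1 to GV6 from left to right, 1 point per oocyte and a line at the median. Obox1 was lowest in MII, at 59.5 to 123 CPM, while Obox2 was lowest in GV7 to GV9, at 119 to 221 CPM.

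The GV sets differed beyond the spread in Obox2 and Obox5 and within it in Obox1. In GV7 to GV9 over GV1 to GV6, Obox2 had a log2 ratio of −2.87 ± 0.52, at 179 CPM (171 to 187) in GV7 to GV9 and 1500.3 CPM (1487 to 1514) in GV1 to GV6. Obox1 had a ratio of 0.50 ± 0.65, at 439 CPM (427 to 451) in GV7 to GV9 and 355 CPM (348 to 361) in GV1 to GV6, and its oocytes overlapped. Obox5 had a ratio of −0.86 ± 0.54, at 274 CPM in GV7 to GV9 and 567 CPM in GV1 to GV6. The counts assigned to Obox1 and Obox2 thus went apart between these sets although their transcripts are 99.2% identical. Whether reads were assigned to genes in the same way in both file sets is not stated in the sources used here and was not tested. The median gene of this comparison stood at −0.20 on total counts. Among the 3 members, Obox2 was at least 2-fold lower in GV7 to GV9, beside 20.2% of 10763 measured genes, and relative levels of Obox2 and Obox5 were lower with no overlap, beside 6.06%. Cumulus and granulosa markers, the unnamed feature and depth, given above, moved with the same sets, and their part in the result was not tested.

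**Figure D3:**
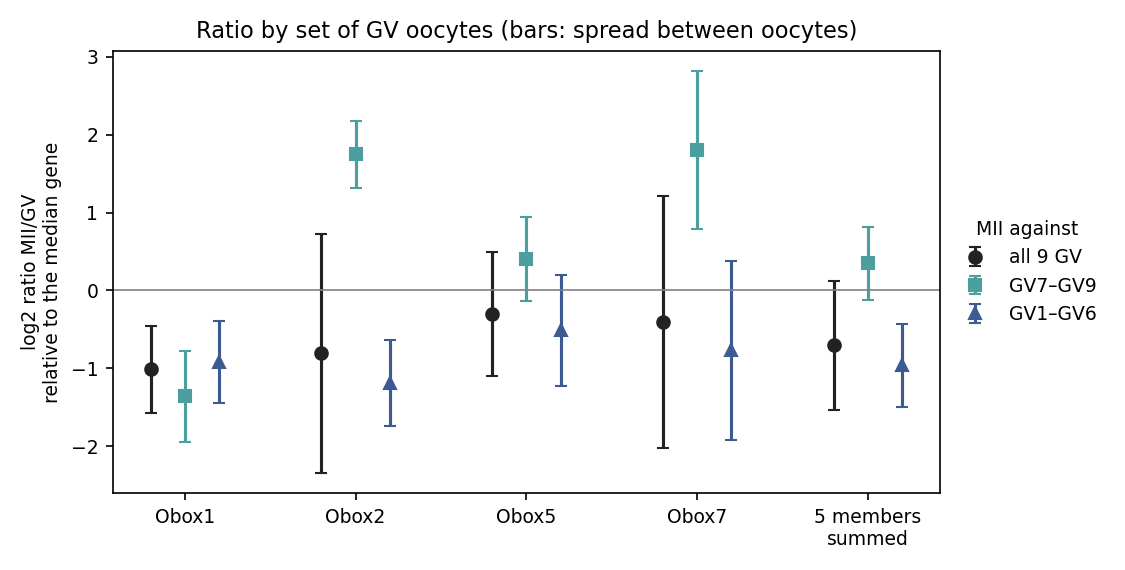
Log2 ratio MII/GV of summed counts relative to the median measured gene for Obox1, Obox2, Obox5, Obox7 and the 5 members summed, with MII set against all 9 GV oocytes, GV7 to GV9 or GV1 to GV6. Bars show the spread between oocytes. Obox1 stayed below 0 in each, from −1.36 to −0.92, whereas Obox2 stood at 1.75 and −1.19 against the GV sets.

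The split of the counts among copies showed the same division without any scaling between libraries. Obox1 made up 14.9 ± 2.15% of the members' counts per oocyte in MII (SD, n = 6), 48.2 ± 5.33% in GV7 to GV9 (SD, n = 3) and 14.7 ± 2.00% in GV1 to GV6 (SD, n = 6). Obox2 made up 53.1 ± 6.87% in MII, 20.3 ± 1.88% in GV7 to GV9 and 61.2 ± 4.85% in GV1 to GV6. Obox5 made up 31.8 ± 5.63% in MII, 31.4 ± 4.80% in GV7 to GV9 and 24.0 ± 4.38% in GV1 to GV6. By this measure MII resembled GV1 to GV6 in Obox1, with ranges of 11.0% to 17.0% and 12.4% to 18.3%, and GV7 to GV9 stood apart from both at 42.1% to 52.2%. The widest exact binomial 95% interval of a share in 1 oocyte reached 4.84 percentage points from its value, and like the Poisson intervals they cover counting error only, since reads amplified by PCR are not independent molecules.

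Within the near-identical pair alone the contrast was larger. Obox1 held 15.2% to 26.5% of the counts of Obox1 and Obox2 in the MII oocytes (median 22.6%). In GV7, GV8 and GV9 it held 66.8%, 74.1% and 69.7%. In GV1 to GV6 it held 17.1% to 25.1% (median 18.3%). The larger share thus went to Obox2 in all 12 oocytes of MII and GV1 to GV6, and to Obox1 in the 3 oocytes of GV7 to GV9. Summing the pair takes away the split between them, but not any loss of reads that match both. For the summed pair the log2 ratio MII/GV relative to the median gene was −0.86 ± 0.89 against all GV oocytes. It was 0.32 ± 0.52 against GV7 to GV9 (−0.53 on total counts) and −1.13 ± 0.51 against GV1 to GV6. Between the GV sets the summed pair was at 618 CPM in GV7 to GV9 and 1855 CPM in GV1 to GV6. The log2 ratio was −1.39 ± 0.60 with no overlap in relative level. The pair was therefore still lower in GV7 to GV9 when it was counted as 1 unit. Among all measured genes, 20.2% were at least 2-fold lower in GV7 to GV9 and 6.06% were lower with no overlap.

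**Figure D4:**
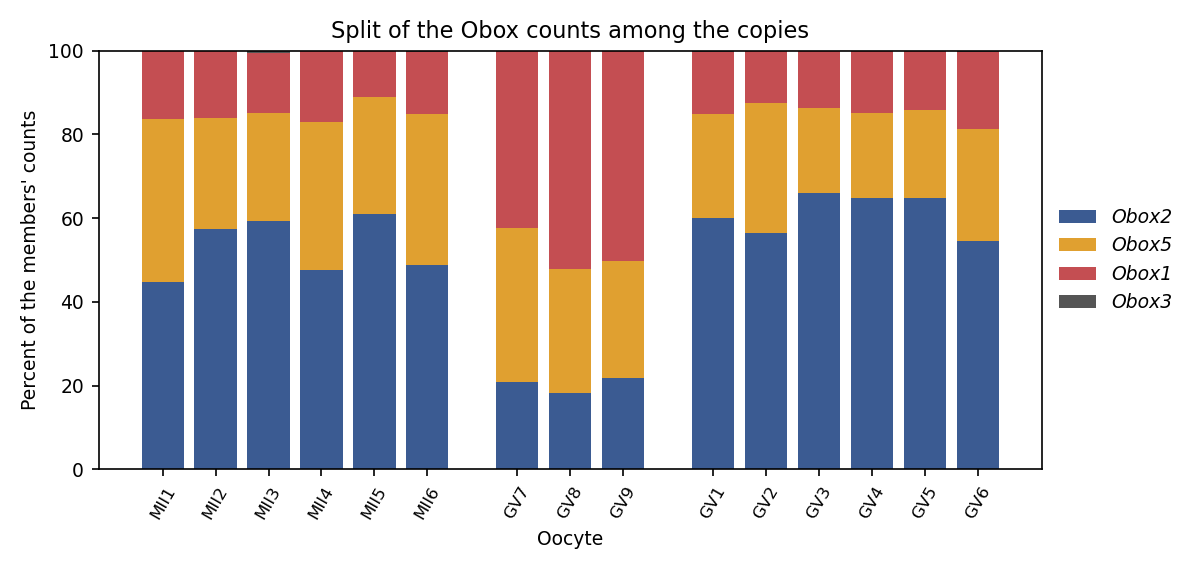
Percent of the members' counts held by Obox2, Obox5, Obox1 and Obox3 in each oocyte, with MII1 to MII6, GV7 to GV9 and GV1 to GV6 from left to right. Obox1 took 42.1% to 52.2% in GV7 to GV9 and 11.0% to 18.3% in all other oocytes; Obox3 forms only a sliver.

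Obox3 and Obox6 were at or near the limit of detection at both stages. Obox3, known mainly from the embryo after fertilisation, had 1, 0, 4, 0, 0 and 3 counts in MII1 to MII6, and 2, 1 and 4 counts in GV7 to GV9. In GV1 to GV6 it had 5 to 42 counts, with 42 in GV1 and 28 in GV6. GV1 and GV6 thus held most of the 108 GV counts. The summed level was 0.831 CPM in MII (0.359 to 1.64) and 2.46 CPM in GV (2.02 to 2.97), under the minimum of 5 CPM, so Obox3 was not among the measured genes. In CPM the GV level was 2.96-fold above that of MII, with a counting interval of 1.45 to 7.03. Relative to the median gene the log2 ratio MII/GV was −0.50 ± 1.25, and it was 0.0016 without GV1 and −1.09 without MII3. With every oocyte thinned to 808641 counts, the total of the shallowest, Obox3 averaged at least 1 count over 20 draws in 2 of 6 MII oocytes and in 5 of 9 GV oocytes.

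Obox6, a divergent copy that has been used as a reprogramming factor in mouse fibroblasts, had 0 counts in all 6 MII oocytes. It had 1 count in GV5 and 0 in the other GV oocytes. A count of 0 over the MII libraries allows a level of up to 0.311 CPM, the value of 3 counts. Obox6 was thus not detected in MII at this depth, and no ratio is given. It is also the member with the smallest share of windows found in other genes.

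Obox7, a copy outside the 5 members that is also stored in the oocyte, was like Obox2 lower in GV7 to GV9 than in GV1 to GV6. Its CPM ran from 32.2 to 101 over the MII oocytes (median 54.6). It was 33.9, 28.2 and 29.8 CPM in GV7, GV8 and GV9, and 86.1 to 337 CPM in GV1 to GV6 (median 193). GV7 to GV9 were again the low GV set, and the MII oocytes overlapped with both sets in CPM. The log2 ratio MII/GV relative to the median gene was −0.41 ± 1.62 against all GV oocytes, 1.80 ± 1.02 with GV7 to GV9 and −0.77 ± 1.15 with GV1 to GV6 as the other side. Without MII5 and MII6, where Obox7 was highest in relative level, the first of these was −1.04. In GV7 to GV9 over GV1 to GV6 the ratio was −2.51 ± 0.73 with no overlap in relative level. Of all measured genes, 20.2% were at least 2-fold lower in this comparison and 6.06% were lower with no overlap. Of the 50-base windows of Obox2, 4.18% also occur in Obox7, and the longest run shared by their longest transcripts has 74 bases.

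The Obox pseudogenes took few reads. Of 48 genes with a pseudogene symbol in GENCODE M21, 47 of them with a pseudogene biotype and Obox4-ps35 with that of a lincRNA, 17 had any count, together 22 in MII and 218 in GV, which is 0.364% of the members' counts in MII and 0.246% in GV. The highest was Obox4-ps3, with 4 counts in MII and 74 in GV, of which 59 were in GV6. Obox3-ps5 had 13 counts in MII and 29 in GV, and Obox4-ps34 had 0 in MII and 22 in GV, of which 18 were in GV8. The other pseudogenes with counts had 0 to 2 in MII and 1 to 23 in GV. Obox8 had 0 counts at both stages. With Obox7 and every pseudogene added to the 5 members, the summed log2 ratio MII/GV was −0.68 ± 0.86, close to the −0.70 of the members.

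Levels of different copies were compared per length, as CPM per kb of merged exons. In MII the order was Obox2 (206 ± 26.7), Obox5 (96.2 ± 25.8), Obox1 (51.0 ± 13.2), Obox7 (35.7 ± 15.3) and Obox3 (0.283 ± 0.364) CPM per kb (mean ± SD, n = 6), with Obox6 at 0. Obox2 was above Obox5 and Obox5 above Obox1 in 6 of 6 MII oocytes with no overlap, while Obox1 and Obox7 overlapped. In GV7 to GV9 the order was Obox1 (236 ± 104), Obox5 (129 ± 35.5), Obox2 (110.2 ± 33.4) and Obox7 (19.1 ± 1.86) CPM per kb (n = 3), and the ranges of Obox1 and Obox5 and those of Obox5 and Obox2 overlapped. In GV1 to GV6 it was Obox2 (928 ± 410.2), Obox5 (278 ± 109), Obox1 (192 ± 80.6) and Obox7 (123 ± 57.6) CPM per kb (n = 6), and Obox2 was above Obox5 with no overlap. MII and GV1 to GV6 thus had the same order of these 4 copies, and GV7 to GV9 had Obox1 first. The lengths come from an annotation of the older build, and how reads shared by Obox1 and Obox2 were divided between them is not known.

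**Figure D5:**
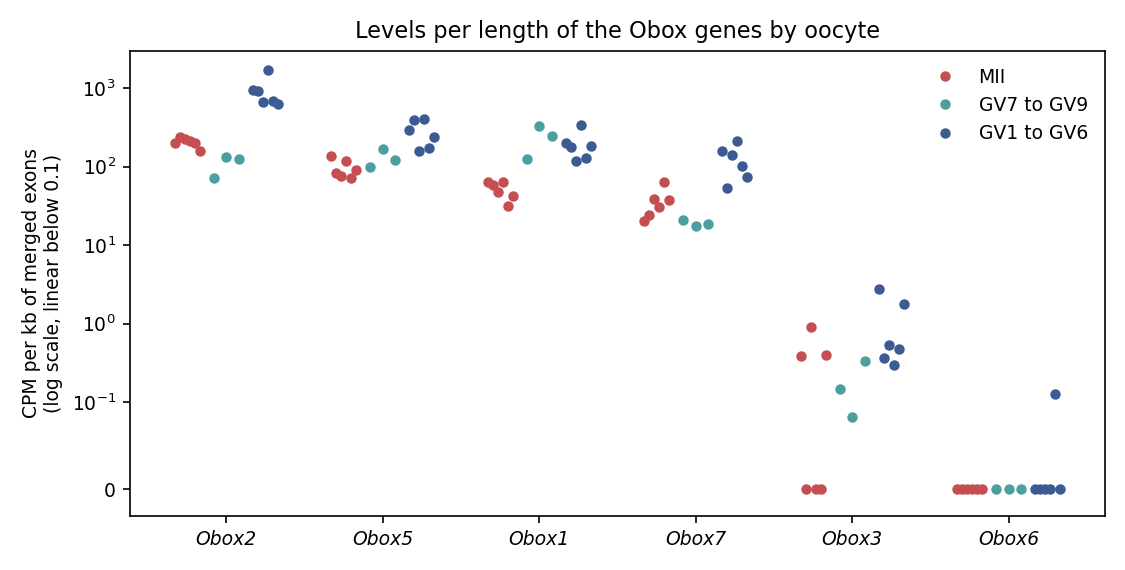
Level of each Obox gene in CPM per kb of merged exons, 1 point per oocyte, on an axis that is logarithmic above 0.1 and linear below it, with MII, GV7 to GV9 and GV1 to GV6 side by side for each gene. Obox2, Obox5, Obox1 and Obox7 were seen in all 15 oocytes, Obox3 in 12 and Obox6 in 1.

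The counts of the family were also put at an equal depth, with every oocyte thinned to 808641 counts and averaged over 20 draws. The 5 members together then had 438 to 601 counts in the MII oocytes (median 525). They had 469 to 975 counts in GV7 to GV9 (median 757) and 1326 to 3538 counts in GV1 to GV6 (median 1796). MII and GV7 to GV9 overlapped. Averages over draws follow the CPM by construction, so thinning could not change the order of the sets. Whether depth had a part in the lower counts was not tested.

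Across the 15 oocytes the copies went together unequally. Spearman's rho between relative levels was 0.83 for Obox2 and Obox7 and 0.69 for Obox2 and Obox5, against 0.36 for Obox1 and Obox5 and 0.18 for Obox1 and Obox2. Within MII alone Obox1 and Obox5 had a rho of 0.94 over 6 oocytes, and within GV1 to GV6 also 0.94 over 6. In relative level Obox1 and Obox5 thus ranked the oocytes alike inside these sets and not across them. For Obox2 and Obox7 the rho was 0.94 within MII and 0.43 within GV1 to GV6. Both were highest in relative level in MII5 and next in MII6, the oocytes with the lowest median gene. In CPM Obox2 ran from 262 in MII6 to 390 in MII2, while Obox7 stood at 60.5 and 38.8 in these oocytes. Their rho within MII thus rests in part on the subtracted median gene. These correlations are descriptions, since the points share library, depth, stage, file set and the subtracted median gene.

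Genes with the pattern most like the family were found by the same measure among 9067 measured protein-coding genes. For the summed family they were Dkk1, which encodes a secreted inhibitor of Wnt signalling (rho 0.91), Eif2b1, a subunit of a translation initiation factor (0.90), Asz1, a germ cell protein of the piRNA pathway (0.89), the small Maf transcription factor gene Maff (0.89) and the zinc finger gene Zfp697 (0.89). Eif2b1 was the one of these with high counts at both stages, at 150.1 CPM in MII and 404 CPM in GV. Dkk1 was at 0.208 CPM in MII, 1.03 CPM in GV7 to GV9 and 9.72 CPM in GV1 to GV6. Zfp697 was at 0.727 CPM in MII and 0 CPM in GV7 to GV9, and Maff at 1.77 CPM in MII. The ranks of Dkk1, Zfp697 and Maff among MII oocytes thus rest on few counts and in part on the subtracted median gene. For Obox2 the nearest were Asz1 (0.92), Zfp697 (0.90) and Fam57a (0.88). For Obox1 they were Ccnb1, which encodes cyclin B1 (0.93), and the ribosomal protein genes Rpl12 (0.93) and Rps27a (0.92). Rpl12 was at 0 CPM in MII and 8.34 CPM in GV, and Rps27a at 0.104 CPM in MII and 15.5 CPM in GV, so both were measured through GV alone, and their ranks among MII oocytes come from the subtracted median gene and hardly from counts of their own. Obox1 and Obox2 had no nearest gene in common. Ccnb1 was at 67.5 CPM in MII, 352 CPM in GV7 to GV9 and 256 CPM in GV1 to GV6, the same order of sets as Obox1. For Obox5 the nearest were Zfp830 (0.89), Odr4 (0.85) and Zfp697 (0.85), and for the sparse Obox3 they were Olfr283 (0.83), Tceanc (0.82) and Ttll12 (0.79). Of the 14 different genes named here as most alike, 7 were under 5 CPM in MII and passed the minimum through GV.

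Other homeobox genes of the oocyte and early embryo were spread on both sides of the median gene. Of 30 genes in this list 18 were measured, of which 5 were lower and 4 higher in MII by at least 2-fold, beside 15.5% lower and 12.1% higher among all measured genes. Their median log2 ratio was 0.08, against a median of 0 over all measured genes, and it had no fixed sign, with −0.90 on total counts, −0.03 with TMM scaling and −0.12 with a minimum of 1 CPM. The most abundant, Nobox, an oocyte homeobox factor of folliculogenesis, was at 699 CPM in MII and 926 CPM in GV (0.58 ± 1.18, lower in MII on total counts, and 1.48 against GV7 to GV9). Pou5f1, the pluripotency factor Oct4, had the highest ratio, at 735 CPM in MII and 281 CPM in GV (2.37 ± 1.46, and 3.28 against GV7 to GV9). Zeb2, a repressor of epithelial genes, had the lowest, with 1 count in MII and 1289 counts in GV, a level in GV 283-fold above MII in CPM with a counting interval of 50.7 to 11178. That fold was 181 without GV2 and 19.8 with GV7 to GV9 alone, and without MII2, which held the single MII count, Zeb2 was at least 79.4-fold lower in MII.

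Genes of the first embryonic genome activation, the process in which the Obox factors act, had Pou5f1 as their highest ratio too. Of 27 in this list 21 were measured, 2 were lower and 5 higher in MII by at least 2-fold, again beside 15.5% lower and 12.1% higher among all measured genes, and the median log2 ratio was 0.27 (−0.71 on total counts). The most abundant, Npm2, a histone chaperone of the egg, was at 444 CPM in MII and 960 CPM in GV (−0.13 ± 1.24, and 0.63 against GV7 to GV9). Gabpa, an ETS family transcription factor, had 0 counts in MII and 270 in GV, at least 19.7-fold lower in MII in CPM with 3 counts over the whole stage as the floor. That bound was 10.9 without GV1 and 6.86 with GV7 to GV9 alone. Among 9 oocyte transcription factors 6 were measured, 0 were lower and 2 higher by at least 2-fold, beside the same shares of 15.5% and 12.1%, with a median of 0.31 (−0.67 on total counts). In that list Sohlh2 had the highest ratio (1.40 ± 2.02) and Taf4b the lowest (−0.61 ± 1.16, and 0.28 against GV7 to GV9), and Nobox was again the most abundant. Against GV7 to GV9 alone the medians were 0.79 for the homeobox list, 0.31 for the genome activation list and 1.48 for the oocyte factors, and against GV1 to GV6 alone they were −0.21, 0.46 and 0.12. For the homeobox list and the oocyte factors, as for Obox2, the values were higher with GV7 to GV9 than with GV1 to GV6 as the other side.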

How the data were processed

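Counts per gene were analysed for 6 MII and 9 GV oocytes, grouped by the stage in the labels. The authors deposited raw whole-number counts by Ensembl gene ID for each oocyte, and a gene with no line for an oocyte was given 0. GRCm39, STAR 2.7.10a and cutadapt 4.0 are named in the submitters' processing notes. How reads were assigned to genes, strands and multiple matches, and whether molecular identifiers were used, is not stated in the sources used here, so reads of near-identical or overlapping copies may be split or lost. Symbols, exon lengths and transcripts came from GENCODE M21 and promoters from RefSeq, both on GRCm38, and every printed coordinate is of that older build.

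The counts of a stage were added up over its oocytes, 0.5 was added, and log2 ratios MII/GV were centred on the median of genes that reached 5 CPM in the higher stage. Intervals are exact Poisson for sums and Clopper-Pearson for shares. No p-value or standard error was made. The 51 pairs of oocytes within a stage all differed by more than sampling noise, with a chi-square per degree of freedom of at least 7.26 over genes.

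Named genes were the members, other Obox genes with counts, the most abundant, lowest and highest gene of each list, and the genes most alike by Spearman's rho (5 for the family, 3 for each member with at least 100 counts). The members, lists and alternatives were chosen with earlier results of these data known. Alternatives changed the scaling, minimum level, pseudocount, thinning, GV set and oocytes left out. Python 3.11.15 with pandas 2.3.3, numpy 2.4.6, SciPy 1.17.1, Biopython 1.88 and matplotlib 3.10.9 was used, with edgeR 4.0.16 in R 4.3.3 for TMM factors only. The ratio script was tested on simulated data.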

Additional observations from a re-analysis of the deposited data

Results flagged for a closer look

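GV4 stood apart from the other oocytes of GV1 to GV6 in the most abundant Obox copies. Its Obox1 level of 652 CPM was far above the next highest of that set, 379 CPM in GV1. Its Obox2 level of 2827 CPM was likewise far above the next highest, 1539 CPM in GV1. Obox5 was also highest in GV4, at 878 CPM, but close to the 842 CPM of GV2. The summed oocyte markers had their highest value, 28230 CPM, in the same oocyte. The gap to the next oocyte was 0.639 of the whole range for Obox1 and 0.719 for Obox2, past the 95% critical value of Dixon's test for a set of this size. These were 2 of 33 groups of values examined, many of which share oocytes, and chance passes that value in about 1 in 20 groups. Whether these values belong together was not tested.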

How the results depend on the processing

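No paired analysis was possible because the replicate numbers only name oocytes and the results come from no test. The ratios of the family, Obox1, Obox2 and Obox5 kept their direction under the scaling, filter and pseudocount alternatives. Without scaling to the median gene the log2 ratios MII/GV on total counts were −1.68 for the family, −2.00 for Obox1 and −1.29 for Obox5, 4957 genes were at least 2-fold lower and 202 higher, against 1560 and 1222 with it. Against GV7 to GV9 alone the family stood at 0.35, Obox5 at 0.41 and Obox2 at 1.75, and 1994 genes were at least 2-fold higher. With a minimum of 1 CPM 3489 genes were lower and 2377 higher, and with 20 CPM 564 and 580. The median gene itself stood at −0.98 on total counts, −0.06 with median-of-ratios scaling, −0.11 with TMM scaling and −0.29 with the unnamed feature left out. Leaving out 1 oocyte at a time, the ratios ran from −0.79 to −0.48 for the family, −1.13 to −0.89 for Obox1, −0.92 to −0.51 for Obox2 and −0.45 to −0.15 for Obox5. Of the other values of these results, 122 stayed within the spread or within 1.5 times the count and 12, given above, did not. The sums with all Obox genes and of Obox1 with Obox2, the share of Obox1 within that pair and the values of Obox7 were chosen after seeing the data. Depth limits Obox3 and Obox6, and shared reads limit Obox1 and Obox2, in every setting.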
